A study of Drosophila melanogaster with 6 samples.

Results

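Glutathione transferase genes were followed in ovary RNA of Drosophila melanogaster females. Their members were taken as the rows of the deposited table whose names begin with GstD, GstE, GstO, GstS, GstT or GstZ, which gave 34 of 13216 rows: 10 of the delta class, 14 of the epsilon class, 3 of the omega class, 1 of the sigma class, 4 of the theta class and 2 of the zeta class. The name alone decided which rows were members, but this rule was chosen with earlier results of these data known. The omega-class gene se (sepia) is listed under its own name and was not a member, and GstD11 was not analysed here. One group of 3 libraries carried a null allele of Gcna, made by a knock-in and knock-out construct with CRISPR and outcrossed for 10 generations to the wBerlin stock (GCNA null). The other group was wBerlin itself (3 libraries, wild type). Females of both groups were collected at an age of 0 to 2 days, were fed wet yeast for 24 hours at 25 °C, and gave total RNA from ovaries at 1 to 3 days of age, without ribosomal RNA. The sources used here do not give the number of ovaries per library. The groups allow 1 comparison, and stretches of founder chromosome left after the outcross cannot be told apart from the lack of Gcna. The samples are of whole ovaries, so fewer cells of a type and less RNA per cell cannot be told apart.

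Glutathione transferases join the tripeptide glutathione to reactive compounds, which makes these compounds soluble and ready for export by transporters of the multidrug resistance family. Insects have large delta and epsilon classes of their own, which stand in tandem clusters and are best known for resistance to insecticides and for the response to oxidants under the transcription factor CncC and its inhibitor Keap1. The other classes are shared with many animals. Zeta enzymes act in the breakdown of tyrosine, omega enzymes reduce dehydroascorbate and take part in the synthesis of red eye pigment, and the sigma enzyme GstS1 is abundant in flight muscle. GstE14, also called noppera-bo, is needed for the synthesis of the steroid hormone ecdysone, which takes place in the ovary as well as in the larval ring gland.

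Between 38401723 and 55758180 reads were counted per library, and 1 read is worth about 1 normalized count. The reads of GCNA null replicates 1 and 2 nearly matched within counting error (chi-square per degree of freedom 1.10 over rows under 1000 reads, against 6.93 to 10.9 for the other 5 pairs within a group). They were averaged into 1 sample, so each mean ± SD is over 2 GCNA null and 3 wild type samples. Whether replicates came from different batches of females is not stated, and p-values here cover only the spread among the samples, which may be technical. The targeted gene, listed as CG14814, had 493, 428 and 520.4 normalized counts in GCNA null and 20676, 18292 and 19581 in wild type ovary libraries. The 10 markers of the ovarian germline, all tested and none called by limma on 5 samples (2 lower by DESeq2 and by limma on 6 separate samples), summed to 203215 to 210212 in GCNA null and 214268 to 246048 in wild type libraries (normalized counts), lower in every GCNA null library. The summed markers of follicle cells reached 713980.0 to 1327666 in GCNA null and 1164188 to 1419770.5 in wild type libraries, with GCNA null replicates 1 and 2 below the other 4 libraries. Muscle markers summed to 27989 to 60199.9 in GCNA null and 31973 to 54470.3 in wild type libraries, fat body markers to 3423 to 10732 in GCNA null and 6088 to 10034 in wild type libraries, and gut and Malpighian tubule markers to 1911 to 2258 in GCNA null and 560.2 to 9318 in wild type libraries. Of these 37 follicle, muscle, fat body and gut markers none was called by limma on 5 samples (2 higher by DESeq2, 1 higher and 1 lower by limma on 6 separate samples, 3 with an unadjusted p under 0.05). Of 5 oviduct markers 1 rose, Oamb (log2 difference 1.31, SE 0.27, limma adjusted p = 0.0406). DESeq2 and limma on 6 separate samples each called 3 of them higher, Oamb, Octbeta2R and Mmp2, which did not overlap between groups and had an unadjusted p under 0.05. Their list had a median log2 difference of 1.17 and sums of 8529.7 to 10255 in GCNA null and 7283 to 11521 in wild type libraries. Of 6 hemocyte markers PPO1 and PPO2 rose (2.17 and 2.16 on the log2 scale), 3 were higher by DESeq2 and by limma on 6 separate samples, and the list had a median of 0.75 and sums of 4545 to 5631 in GCNA null and 4388 to 5335 in wild type libraries. Of 7 testis markers (4 tested) aly rose and topi fell (4.56 and -1.86 on the log2 scale), with sums of 6882 to 7112 in GCNA null and 6908 to 7717 in wild type libraries. aly passed the filter on low values mainly through the GCNA null libraries, so its separation was partly fixed by the filter. It could be fitted in only 13 of 18 alternatives. Each of these 5 calls was lost in at least 1 fit that left out a library (limma adjusted p up to 0.126). None of 6 nervous system markers passed (2 tested; none by edgeR or DESeq2, and none at an unadjusted p under 0.05), with sums of 299 to 476 in GCNA null and 285 to 322 in wild type libraries. Over all tested rows, limma on 5 samples called 4.25% higher and 2.11% lower, and DESeq2 6.86% and 4.77%. With limma on 6 separate samples these shares were 9.23% and 7.39%. The groups did not overlap in 19.6% of all tested rows as higher and in 19.3% as lower. No marker was at 0 in every library of a group. The part of these cell types in the results below was not tested.

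The summed level of the glutathione transferase transcripts was nearly the same in both groups, while its makeup differed. The 34 rows together had 62592, 62092 and 62075 in the GCNA null libraries, against 60723, 68223 and 58902 in the wild type libraries (normalized counts). Their sum was 62209 ± 189 in GCNA null (SD, n = 2) and 62616 ± 4940.4 in wild-type ovaries (SD, n = 3), a ratio of 0.993, and all 3 GCNA null libraries lay within the range of the wild type libraries. Per kb of annotated exon, GstD1 was the most abundant member, at 27986 normalized counts per kb in GCNA null and 28739 in wild-type ovaries, which placed it at rank 113 of 9179 tested protein-coding rows in wild type. GstE6 followed with 6561 and 11556 normalized counts per kb in GCNA null and wild-type ovaries, and GstE1 with 5514 and 6289. GstD1 alone supplied 37.9% in GCNA null and 38.7% in wild-type ovaries of the summed normalized counts. The share of GstE6 was 7.92% in GCNA null and 13.9% in wild-type ovaries.

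By class, the summed level of the delta rows was 27706 ± 327 normalized counts in GCNA null and 25813 ± 3105 in wild-type ovaries (SD, n = 2 and 3). Without GstD1 the other 9 delta rows summed to 4165, 4339 and 3976 in the GCNA null libraries, against 1687, 1788 and 1282 in the wild type libraries, a ratio of 2.59, and the groups were well apart. The epsilon rows summed to 16468, 16273 and 16777 in the GCNA null libraries, against 18352, 21819 and 19685 in the wild type libraries, so that every GCNA null library was below every wild type library, at a ratio of 0.831. The theta rows summed to 6445, 6535 and 5395 in the GCNA null libraries, against 4679, 4589 and 4154 in the wild type libraries, again with no overlap but in the opposite direction, at a ratio of 1.33. The ratios were 0.961 for the omega rows, 0.983 for GstS1 and 0.928 for the zeta rows, whose libraries overlapped between the groups. These sums rest mostly on 1 or a few abundant members and were not tested.

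**Figure D1:**
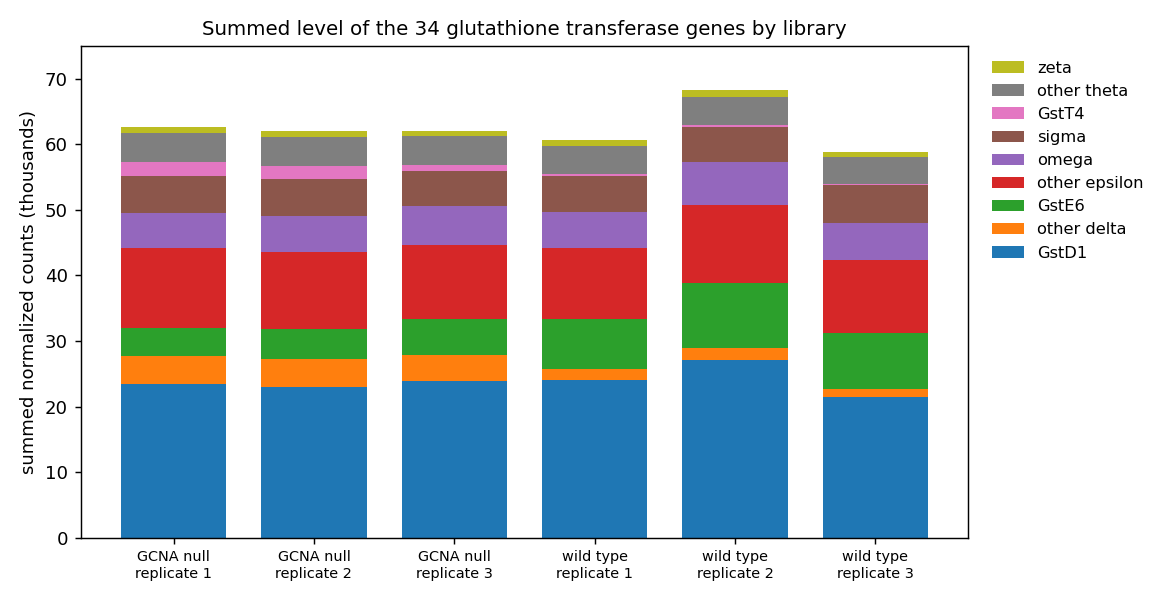
Each bar is 1 ovary library, and its height is the summed normalized counts of the 34 glutathione transferase genes, divided by class with GstD1, GstE6 and GstT4 drawn apart. The bars reach between 58902 and 68223 normalized counts, and the GstE6 part is thinner and the GstT4 and other delta parts thicker in the GCNA null libraries.

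Of the 34 rows, 30 reached 10 normalized counts in 3 or more libraries and were tested in a limma fit over all 10132 such rows of the table. Transcripts of 6 glutathione transferase genes rose and 1 fell in GCNA null ovaries (Benjamini-Hochberg adjusted p under 0.05). Over all tested rows, 4.25% were called higher and 2.11% lower, or 6.37% in all. The 6 that rose were GstD2 and GstD3 of the delta class, GstE7, GstE10 and GstE11 of the epsilon class, and GstT4 of the theta class, and GstE6 fell. At least a 2-fold rise was seen in 5 of them, and none fell that far, against 2.52% of all tested rows called and at least 2-fold higher and 0.642% at least 2-fold lower, or 3.16% in all. The values of the 3 GCNA null libraries did not overlap those of the 3 wild type libraries in 17 of the 30 tested members, 13 higher and 4 lower, against 19.6% of all tested rows higher and 19.3% lower, or 38.9% in all. The median log2 difference was 0.20 over the tested members and -0.00045 over all tested rows. It was -0.0067 over the members with at least 50 normalized counts in 3 libraries. The same 7 members were called by edgeR on the recovered reads, which called 4.48% of all tested rows higher and 1.9% lower, or 6.39% in all. DESeq2 added GstO3 as higher, and called 6.86% of all rows higher and 4.77% lower, or 11.6% in all. With all 6 libraries as separate samples limma called GstE5, GstO3 and GstT3 higher in addition, against 9.23% of all rows higher and 7.39% lower, or 16.6% in all.

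**Figure D2:**
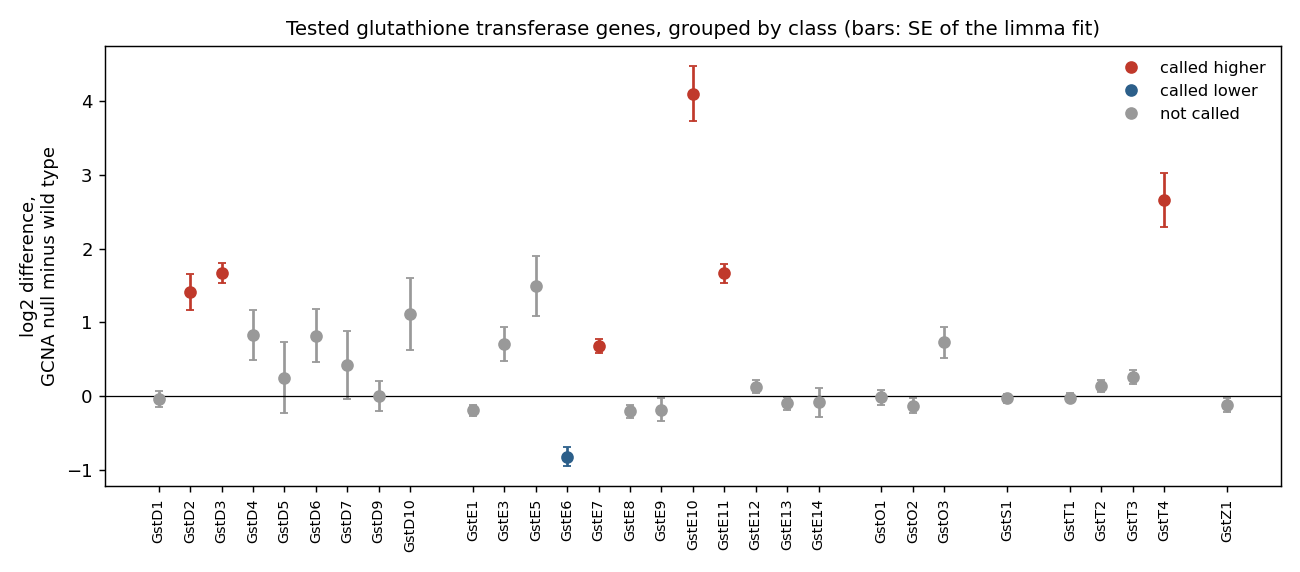
The vertical axis is the log2 difference of normalized counts plus 1, GCNA null minus wild type, with the SE of the limma fit as bars, for the 30 tested glutathione transferase genes on the horizontal axis, grouped by class. GstE10 stands highest at 4.10 and GstE6 lowest at -0.81, and the omega, sigma and zeta genes have no called member.

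The delta class has 10 listed members in a cluster of 16.0 kb on chromosome 3R, at 12364776 to 12380815 (BDGP6, the dm6 assembly). GstD3 and GstD2 rose, and GstD1 did not pass. GstD3, whose protein lacks the N-terminal stretch that holds the catalytic serine of other delta enzymes, had 3433, 3549 and 3358 normalized counts across the GCNA null libraries, against 1184, 1194 and 886 across the wild type ones. Every GCNA null library was over 2-fold above every wild type library. The means were 3424 ± 94.1 in GCNA null (SD, n = 2) and 1088 ± 175 in wild-type ovaries (SD, n = 3) (log2 difference 1.67, SE 0.14, limma adjusted p = 0.00176). GstD3 is a gene of 1 exon on the plus strand, at 12373068 to 12373813, with no other annotated gene over it. GstD2, at 12371971 to 12372704 and 363 bp upstream of GstD3, had 253, 253 and 183 normalized counts in GCNA null libraries, against 90.7, 89.9 and 63.2 in wild type libraries. The groups were apart, and in each of them replicate 3 was the lowest. The means were 218 ± 49.5 in GCNA null (SD, n = 2) and 81.3 ± 15.6 in wild-type ovaries (SD, n = 3) (log2 difference 1.41, SE 0.25, limma adjusted p = 0.0257). The call of GstD2 was lost when a single wild type library was left out (log2 difference 1.24 to 1.50, limma adjusted p = 0.0581 to 0.0661) and when GCNA null replicates 1 and 2 were (log2 difference 1.18, limma adjusted p = 0.115).

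GstD1, a widely expressed enzyme that also dehydrochlorinates the insecticide DDT, had 23484, 22962 and 23961 normalized counts in GCNA null and 24076, 27155 and 21451 in wild type ovary libraries. The groups overlapped, with means of 23592 ± 522 in GCNA null (SD, n = 2) and 24227 ± 2855 in wild-type ovaries (SD, n = 3) (log2 difference -0.032, SE 0.11, limma adjusted p = 0.887). The level of GstD3 relative to GstD1 in the same library was 14.6%, 15.5% and 14.0% in the GCNA null libraries, against 4.92%, 4.40% and 4.13% in the wild type libraries. The share of GstD1 in the delta sum was 85.2% in GCNA null and 93.9% in wild-type ovaries, and that of GstD3 12.4% in GCNA null and 4.21% in wild-type ovaries. GstD9, which lies between GstD10 and GstD1, had 322, 335 and 305 normalized counts across the GCNA null libraries, against 317, 398 and 252 across the wild type ones, with overlap. The remaining delta genes were scarce. GstD4 had 36.8, 49.7 and 40.3 normalized counts in GCNA null libraries, against 28.1, 15.9 and 27.2 in wild type libraries, and GstD6 had 21.9, 21.3 and 16.1 normalized counts in GCNA null and 11.2, 10.6 and 8.72 in wild type ovary libraries. In both the groups were apart by a narrow margin, with log2 differences of 0.83 and 0.82 (limma adjusted p = 0.211 and 0.233). GstD10 had 56.4, 76.5 and 37.2 normalized counts across the GCNA null libraries, against 15.9, 40.2 and 17.4 across the wild type ones. It overlapped between the groups, with a log2 difference of 1.12 that did not pass (limma adjusted p = 0.232). GstD5 overlapped too, at 17.1 to 30.8 normalized counts in GCNA null and 10.9 to 29.0 in wild type libraries, and so did GstD7, with means of 12.7 in GCNA null and 9.72 in wild-type ovaries. GstD8 was not tested, with 19 reads in the 3 GCNA null and 18 in the 3 wild type libraries. The genes GstD2 to GstD8 are close copies, and the authors' counting could have split reads between them. This leaves the scarce ones uncertain, and also GstD2, which lay far below its neighbour GstD3 in every library.

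**Figure D3:**
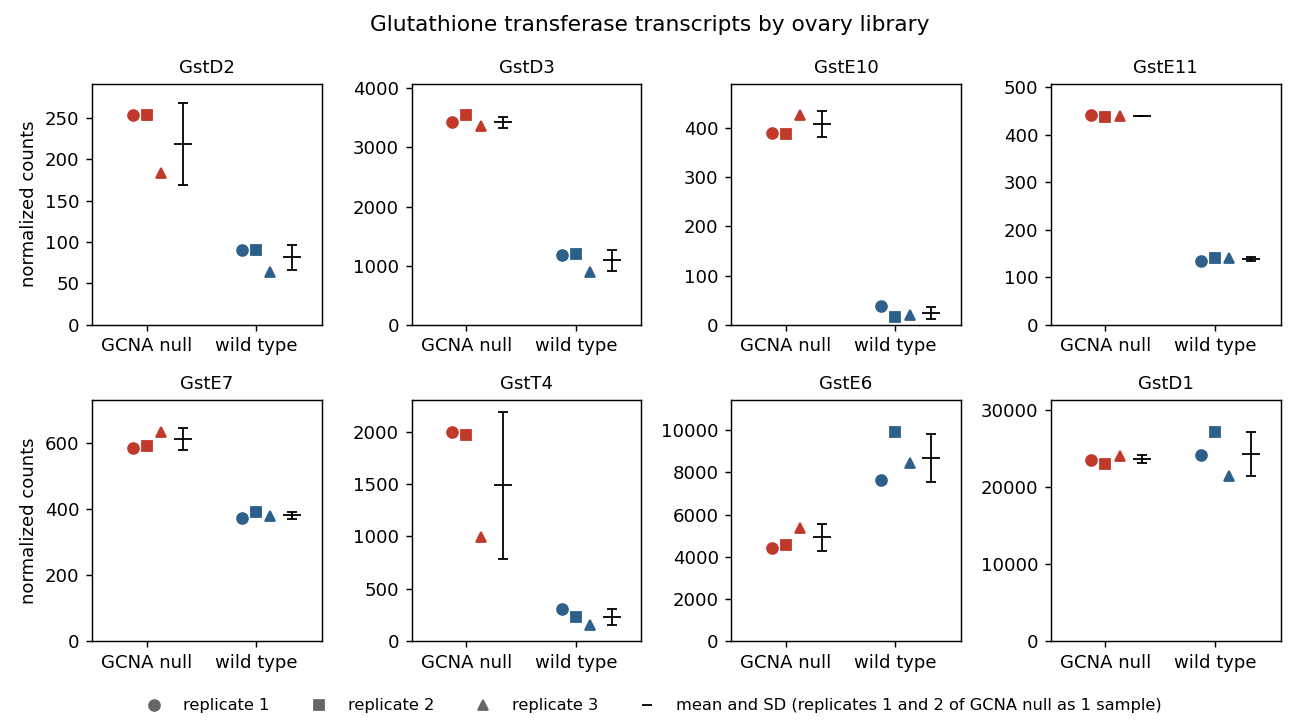
Each panel is 1 gene, with normalized counts per library on the vertical axis, the GCNA null libraries on the left and the wild type libraries on the right, and bars for the mean and SD over 2 and 3 samples. The 6 genes that rose, GstE6, which fell, and the abundant GstD1 are shown. The groups are apart in every panel except that of GstD1, and GstT4 in GCNA null replicate 3 lies at 991, below the other GCNA null libraries.

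The epsilon class showed changes in both directions. It has 10 genes, GstE1 to GstE10, in a cluster of 13.2 kb on chromosome 2R, at 18396638 to 18409835, and 4 genes elsewhere on the same arm. GstE6, the epsilon gene with the highest level per kb in wild-type ovaries, had 4393, 4548 and 5384 normalized counts in GCNA null libraries, against 7648, 9927 and 8459 in wild type libraries. Every GCNA null library was below every wild type library. The means were 4927 ± 646 in GCNA null (SD, n = 2) and 8678 ± 1155 in wild-type ovaries (SD, n = 3) (log2 difference -0.81, SE 0.13, limma adjusted p = 0.0181), 1.76-fold higher in wild type. GstE7 begins 162 bp after the end of GstE6 on the same strand and went the other way, with 583, 589 and 633 normalized counts in GCNA null and 371, 390.1 and 378 in wild type ovary libraries. Its means were 609.7 ± 33.2 in GCNA null (SD, n = 2) and 379.9 ± 9.55 in wild-type ovaries (SD, n = 3) (log2 difference 0.68, SE 0.10, limma adjusted p = 0.0145), and the wild type libraries were close together. The ratio of GstE6 to GstE7 within a library, which does not depend on how libraries are scaled, was 7.53, 7.72 and 8.50 in the GCNA null libraries, against 20.6, 25.4 and 22.4 in the wild type libraries. Both are genes of 1 exon on the plus strand, GstE6 at 18406011 to 18406761 and GstE7 at 18406924 to 18407688, with no other annotated gene over them. The call of GstE6 was lost without wild type replicate 3 and without GCNA null replicates 1 and 2 (log2 difference -0.83 and -0.68, limma adjusted p = 0.0675 and 0.0681). That of GstE7 was lost without wild type replicate 1 or 3 (log2 difference 0.66 to 0.68, limma adjusted p = 0.0561 to 0.0577).

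GstE10 showed the largest difference of the tested members. It had 391, 389 and 427 normalized counts across the GCNA null libraries, against 38.3, 15.9 and 19.6 across the wild type ones. Its level in every GCNA null library was more than 10-fold above that of the highest wild type library. The means were 408 ± 26.0 in GCNA null (SD, n = 2) and 24.6 ± 12.0 in wild-type ovaries (SD, n = 3), a ratio of 16.6 (log2 difference 4.10, SE 0.38, limma adjusted p = 0.00264), from 1257 reads in GCNA null and 74 in wild type libraries. GstE10 lies on the minus strand at 18396638 to 18398519 and overlaps the start of GstE1, on the plus strand, by 127 bp. The sources used here do not give the strand setting of the counting, so reads of this stretch may have gone to either gene and both values are uncertain to that extent. GstE1 had 4822, 4713 and 4397 normalized counts in GCNA null libraries, against 4872, 5324 and 5482 in wild type libraries. All 3 GCNA null libraries were below the wild type libraries, but the difference did not pass (log2 difference -0.19, SE 0.072, limma adjusted p = 0.186). GstE10 relative to GstE1 was 8.11%, 8.25% and 9.71% in the GCNA null libraries, against 0.787%, 0.298% and 0.358% in the wild type libraries. GstE11, a gene of 4 exons, lies further along the arm on the plus strand, at 18503608 to 18505025. It had 442, 437 and 439.9 normalized counts in GCNA null and 134, 139.6 and 141 in wild type ovary libraries. The libraries of each group were within a few counts of each other, with means of 439.6 ± 0.352 in GCNA null (SD, n = 2) and 138 ± 3.71 in wild-type ovaries (SD, n = 3) (log2 difference 1.67, SE 0.13, limma adjusted p = 0.00142). Both SDs are smaller than counting error at these levels, so they understate the spread. GstE10, GstE11 and GstD3 kept their calls under all 18 alternatives tried.

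Of the other epsilon genes of the cluster, GstE3 had 240.4, 264 and 335 normalized counts across the GCNA null libraries, against 154, 230.5 and 159 across the wild type ones, with no overlap and a log2 difference of 0.70 that did not pass (limma adjusted p = 0.139). GstE5 had 28.8, 22.1 and 29.2 normalized counts in GCNA null libraries, against 13.1, 6.34 and 8.72 in wild type libraries. It passed the filter on low values mainly through the GCNA null libraries, so its separation was partly fixed by the filter, and it was called with 6 separate samples but not on 5 (log2 difference 1.50, SE 0.41, limma adjusted p = 0.0902; adjusted p = 0.0261 with 6). GstE8 averaged 545 normalized counts in GCNA null and 626 in wild-type ovaries, and GstE9 160.3 and 181. Both had all 3 GCNA null libraries below the wild type ones, with log2 differences of -0.20 and -0.18 (limma adjusted p = 0.228 and 0.522). GstE2 and GstE4 were too scarce to test, at 30 and 4 reads in the GCNA null and 23 and 6 in the wild type libraries together. Within the cluster, genes that rose, fell or did not pass thus stood side by side. Outside it, GstE12 had 2766, 2617 and 2473 normalized counts in GCNA null and 2217, 2612 and 2271 in wild type ovary libraries (log2 difference 0.13, SE 0.089, limma adjusted p = 0.439). GstE13 had 1902, 1889.6 and 1819 normalized counts across the GCNA null libraries, against 1982, 2187 and 1797 across the wild type ones (log2 difference -0.094, SE 0.092, limma adjusted p = 0.585). Both overlapped between groups. GstE14, the ecdysone synthesis gene, had 132, 137 and 129.8 normalized counts in GCNA null libraries, against 116, 167 and 142 in wild type libraries, also with overlap (log2 difference -0.081, SE 0.20, limma adjusted p = 0.839).

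In the theta class, GstT4 rose. GstT4, a gene of 4 exons at 13404749 to 13409323 on the plus strand of the X chromosome, had 2000.0, 1964 and 991 normalized counts in GCNA null and 307, 227 and 157 in wild type ovary libraries. The groups were far apart, but GCNA null replicate 3 reached about the midpoint between wild type and the other GCNA null libraries. The means were 1487 ± 700.4 in GCNA null (SD, n = 2) and 230.3 ± 74.9 in wild-type ovaries (SD, n = 3), a ratio of 6.45 (log2 difference 2.65, SE 0.36, limma adjusted p = 0.0121). Without GCNA null replicates 1 and 2 the difference was 2.15 on the log2 scale (limma adjusted p = 0.0298), and without replicate 3 it was 3.15. It no longer passed without wild type replicate 2 (log2 difference 2.67, limma adjusted p = 0.0512). Summed markers of several cell types also set GCNA null replicate 3 apart from replicates 1 and 2. It was lower for muscle (27989 against 60199.9 and 59110) and the nervous system (299 against 476 and 469). It was higher for follicle cells (1327666 against 743776 and 713980.0) and fat body (10732 against 3423 and 3532). The part of these cell types in GstT4 was not tested. GstT4 supplied 25.0% in GCNA null and 5.15% in wild-type ovaries of the theta sum. It lies 11.5 Mb from Gcna on the same chromosome. GstT3, 18.6 Mb from Gcna, had 987, 1020.2 and 916 normalized counts across the GCNA null libraries, against 857, 806 and 742 across the wild type ones. Its groups were apart, but the difference did not pass on 5 samples (log2 difference 0.26, SE 0.096, limma adjusted p = 0.176). The neighbouring pair GstT1 and GstT2 on chromosome 2R differed less. GstT1 had 2451, 2599 and 2507 normalized counts in GCNA null libraries, against 2612, 2615 and 2423 in wild type libraries (log2 difference -0.018, SE 0.061, limma adjusted p = 0.888). GstT2 had 1007, 952 and 980.4 normalized counts in GCNA null and 903, 942 and 832 in wild type ovary libraries (log2 difference 0.14, SE 0.085, limma adjusted p = 0.383). The groups overlapped for GstT1 and were narrowly apart for GstT2.

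No omega, sigma or zeta gene passed with limma on 5 samples or with edgeR. Of the 5 tested, 1, GstO3, had an unadjusted p under 0.05 and was called higher by DESeq2 and by limma on 6 separate samples. The 3 omega genes share a locus on chromosome 3L. GstO2 had 3397, 3386 and 3899 normalized counts across the GCNA null libraries, against 3629, 4452 and 3854 across the wild type ones (log2 difference -0.12, SE 0.10, limma adjusted p = 0.524). GstO1 had 1764, 1821 and 1573 normalized counts in GCNA null libraries, against 1691, 1868 and 1542 in wild type libraries (log2 difference -0.013, SE 0.10, limma adjusted p = 0.955). Both overlapped between groups. GstO3 had 267, 265 and 345 normalized counts in GCNA null and 172, 226 and 155 in wild type ovary libraries, with the groups apart (log2 difference 0.73, SE 0.21, limma adjusted p = 0.105; DESeq2 adjusted p = 0.043). se, the eye pigment gene between GstO3 and GstO2, had 10 reads in the GCNA null and 1 in the wild type libraries together. GstS1, the sigma enzyme, had 5684, 5608 and 5359.9 normalized counts across the GCNA null libraries, against 5527, 5388 and 5879 across the wild type ones. Its libraries spanned a narrow range with overlap (log2 difference -0.024, SE 0.061, limma adjusted p = 0.843). The sum of the muscle markers varied over 2-fold between libraries, and the part of muscle in GstS1 was not tested. GstZ1 had 909.7, 899 and 784 normalized counts in GCNA null libraries, against 908, 938 and 899 in wild type libraries, also with overlap (log2 difference -0.12, SE 0.091, limma adjusted p = 0.478). GstZ2, its neighbour, was not tested. It had 17 reads in the GCNA null and 2 in the wild type libraries together, a ratio of 7.96 after scaling (exact 95% interval 1.89 to 71.1, counting error only).

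Genes that neighbour the glutathione transferase genes mostly did not pass. Within 25 kb of a member lay 123 other rows, of which 101 were tested, 3 rose and 1 fell, or 3.96% against 6.37% of all tested rows. Their median log2 difference was -0.024. Within 10 kb lay 64 rows, of which 50 were tested and none was called by limma, limma-voom or edgeR (3 higher and 2 lower with DESeq2, 3 higher and 4 lower with limma on 6 separate samples, and 11 with an unadjusted p under 0.05). Around the epsilon cluster 1 of 11 tested neighbours passed. This was CG30118 (current symbol Ttd14), which lies 20480 bp from GstE9 and fell by 0.57 on the log2 scale (limma adjusted p = 0.00462). Idgf5, 1356 bp from GstE10, had 18.4, 18.1 and 12.1 normalized counts in GCNA null and 14.0, 16.9 and 16.3 in wild type ovary libraries, with overlap and no call. imd, the adaptor of a bacterial defence pathway, overlaps GstE9 on the other strand and had a log2 difference of -0.27 (limma adjusted p = 0.0802). Neither of the 2 tested neighbours of GstE11 passed, nor any of the 8 of GstT4. CG1998 lies 46 bp from GstT4 and had a log2 difference of 0.61 (limma adjusted p = 0.201). Of these 10, edgeR called none, DESeq2 and limma on 6 separate samples each called 1 (CG43066, higher), and 2 had an unadjusted p under 0.05.

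Around the delta cluster 2 of 7 tested neighbours rose, both beyond GstD8. CG10096 and CG10097, which lie between, had identical values and so amount to 1 measurement, although each was counted as its own row among the neighbours. lig3, a DNA ligase gene 18196 bp away, rose by 0.72 on the log2 scale (limma adjusted p = 0.00427). The cytochrome P450 gene Cyp9f2, 22525 bp away, had 723, 704 and 398 normalized counts across the GCNA null libraries, against 185, 166 and 178 across the wild type ones. Replicate 3 was the lowest GCNA null library, as for GstT4, GstD2 and, by a small margin, GstD3. It was the highest for GstE7 and GstE10 and in the middle for GstE11. The groups of Cyp9f2 were apart (log2 difference 1.59, SE 0.25, limma adjusted p = 0.0173). The call was lost when a single wild type library was left out (log2 difference 1.55 to 1.63, limma adjusted p = 0.0507 to 0.0667). The fourth changed neighbour was CG4716, 15574 bp from GstE14, with a log2 difference of 0.98 (limma adjusted p = 0.0274). Its call was lost without any 1 wild type library (limma adjusted p = 0.0513 to 0.0927) and with quantile normalization (limma adjusted p = 0.0561). It was also lost without GCNA null replicate 3 and without replicates 1 and 2 (log2 difference 0.86 and 1.10).

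**Figure D4:**
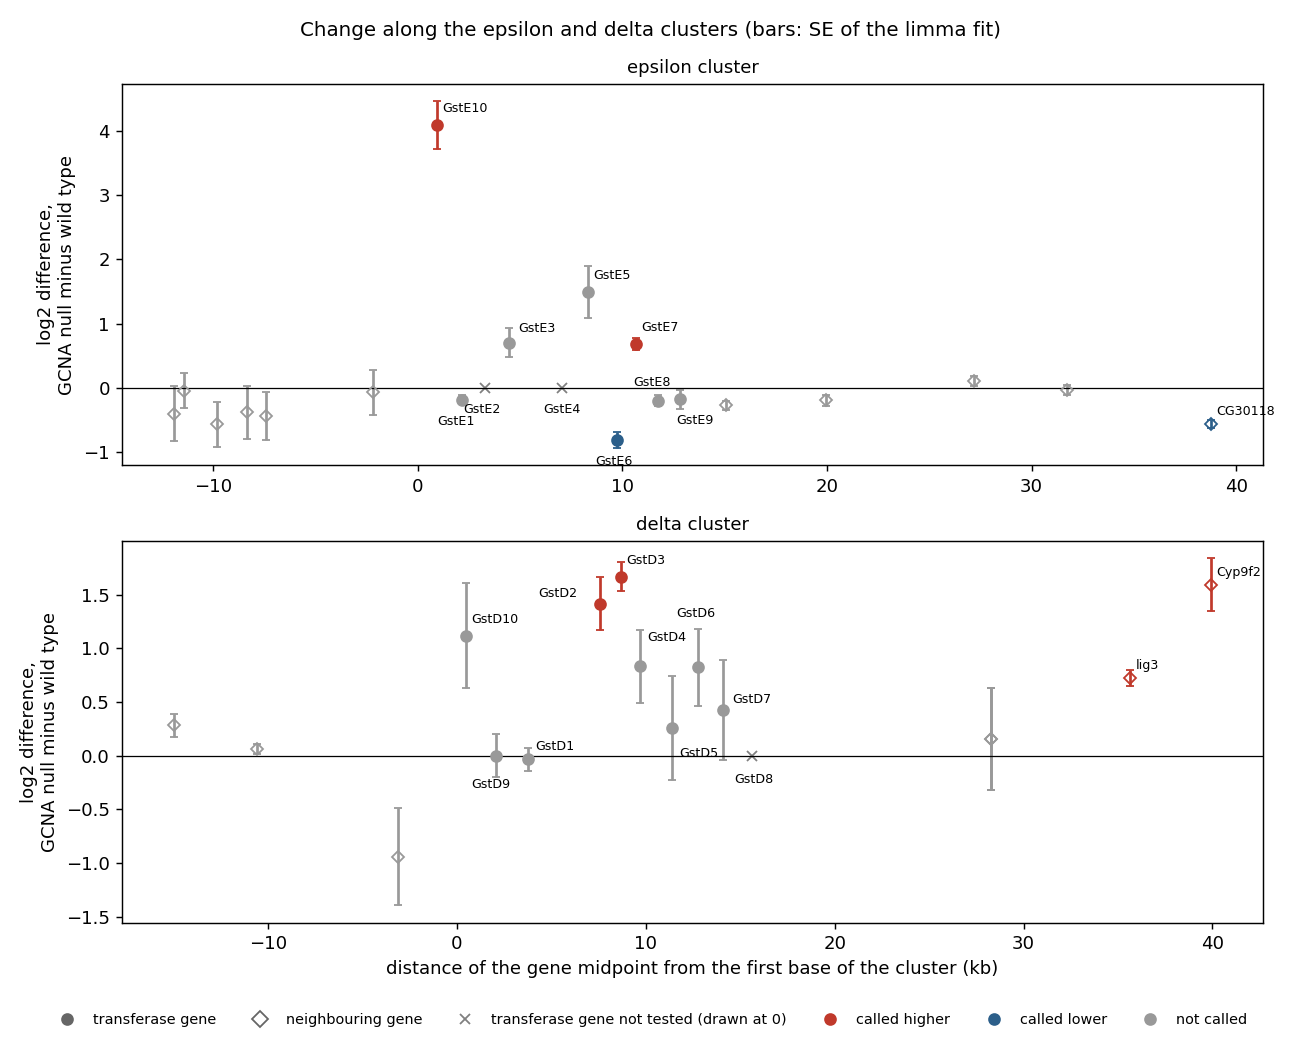
The log2 difference, GCNA null minus wild type, of the epsilon cluster genes (upper panel) and delta cluster genes (lower panel) and of their tested neighbours within 25 kb is drawn against the distance of the gene's midpoint from the first base of the cluster in kb, with the SE of the limma fit as bars and crosses at 0 for members too scarce to test. GstE10 at 4.10 stands beside GstE1 at -0.19, and GstE6 at -0.81 beside GstE7 at 0.68.

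Genes of glutathione metabolism and detoxification were called at about the share of the whole table: of 85 tested genes on 12 lists 3 rose and 3 fell, or 7.06%, against 6.37% of all tested rows. Of 7 genes that make or break down glutathione, 1 rose, the gamma-glutamyl transpeptidase gene CG17636, with 64.4, 66.3 and 74.5 normalized counts in GCNA null libraries, against 29.9, 24.3 and 15.3 in wild type libraries (log2 difference 1.60, SE 0.34, limma adjusted p = 0.0468). This call was lost in every fit that left out a library (limma adjusted p = 0.0501 to 0.106 where both groups kept 2 or more samples). It was also lost with no filter beyond 1 read, with a filter of 50 normalized counts, and with quantile normalization (limma adjusted p = 0.0614, 0.0784 and 0.0857). Gclc, the catalytic subunit of the enzyme that starts glutathione synthesis, had a log2 difference of -0.097 (limma adjusted p = 0.477), and the list median was -0.097. In this list DESeq2 also called 1 gene lower, and limma on 6 separate samples 2. Among 12 thioredoxin, peroxiredoxin, glutaredoxin and glutathione peroxidase genes, Prx3, a mitochondrial peroxiredoxin, fell, with 3861, 3812 and 4184 normalized counts in GCNA null and 5275, 6206 and 5668 in wild type ovary libraries (log2 difference -0.51, SE 0.083, limma adjusted p = 0.0207). It no longer passed without wild type replicate 3 or without GCNA null replicates 1 and 2 (log2 difference -0.51 to -0.45, limma adjusted p = 0.0764 to 0.095). The list median was -0.062, and DESeq2 and limma on 6 separate samples each also called 1 gene of the list higher. None of the 5 regulators around CncC and Keap1 passed with limma, edgeR or DESeq2, and none had an unadjusted p under 0.05. cnc itself had 19012, 19242 and 19021 normalized counts across the GCNA null libraries, against 20251, 18402 and 19918 across the wild type ones, with overlap, and foxo had a log2 difference of 0.076. Of 5 tested genes that remove superoxide and peroxide none passed with limma on 5 samples or edgeR, 1 was called higher by DESeq2 and 1 by limma on 6 separate samples, and 2 had an unadjusted p under 0.05. Sod3 and Sod had log2 differences of 0.042 and -0.069.

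Among partners of the detoxification pathway, the transporter gene CG4562 (current symbol Mrp5) rose, 1 of 10 multidrug transporters tested. It had 2342, 2365 and 2010.1 normalized counts in GCNA null libraries, against 405, 518 and 338 in wild type libraries (log2 difference 2.39, SE 0.18, limma adjusted p = 0.00142), and it overlaps CG4686 on the other strand. The groups were far apart, and GCNA null replicate 3 was the lowest of its group. Among other genes that rose, GstE7, GstE10, CG17636 and Ugt36Bc had GCNA null replicate 3 as the highest. GstD2, GstD3, GstT4 and Cyp9f2 had it as the lowest, and GstE11 had it in the middle. The transporter list had a median of -0.18. In it DESeq2 also called 2 genes lower, and limma on 6 separate samples 3 (4.77% and 7.39% of all tested rows were lower by these fits). Of 10 carboxylesterases tested, alpha-Est5 fell, with 368, 348 and 504 normalized counts in GCNA null and 1447, 1471 and 1420.2 in wild type ovary libraries (log2 difference -1.76, SE 0.15, limma adjusted p = 0.00175; list median -0.11). With 6 separate samples limma also called 1 carboxylesterase higher. Of 10 tested rows of UDP-glycosyltransferases, which attach sugars to foreign compounds, 1 rose. Ugt36Bc (current symbol Ugt37D1) had 106, 109 and 117 normalized counts across the GCNA null libraries, against 44.0, 38.1 and 26.2 across the wild type ones (log2 difference 1.64, SE 0.28, limma adjusted p = 0.0246). It no longer passed without wild type replicate 2 or 3, GCNA null replicate 3, or GCNA null replicates 1 and 2 (log2 difference 1.43 to 1.70, limma adjusted p = 0.0506 to 0.0868). That list, taken by the prefix Ugt, also holds the row Ugt (current symbol Uggt), a folding sensor of another kind, and its median was 0.54. DESeq2 and limma on 6 separate samples each called 2 rows of the list higher. Beside the omega class, Dhpr fell, 1 of 7 pteridine genes tested (log2 difference -0.58, SE 0.097, limma adjusted p = 0.0229; list median -0.14), and did not pass without wild type replicate 2 or 3 or without GCNA null replicates 1 and 2 (log2 difference -0.58 to -0.47, limma adjusted p = 0.0667 to 0.0916). No call was made with limma on 5 samples, edgeR or DESeq2 among 8 other transferase-related genes (none at an unadjusted p under 0.05), 2 methylglyoxal genes (2), 2 tyrosine breakdown genes (none) and 8 steroid synthesis genes (1). limma on 6 separate samples called 1 methylglyoxal gene lower and 1 steroid synthesis gene higher. In these lists Ef1gamma, fax, CG4365, CG1707, Hn, Faa, woc and spo had log2 differences of 0.027, 0.057, -0.23, -0.19, 0.078, -0.11, -0.12 and 0.0044.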

How the data were processed

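Total RNA of 6 ovary libraries was sequenced by strand after removal of ribosomal RNA, per the labels' protocols. The submitters' processing notes name CASAVA 1.8.2, STAR 2.5, DESeq2 and dm6. The sources used here do not give the counter, its strand setting or the annotation. What the authors deposited is a signal in normalized counts: reads per row divided by 1 size factor per library. Values were whole multiples of 1 step per library (within 1e-06), so whole reads were recovered for 100% of them.

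Groups came from the sample titles. By symbol or synonym, 12857 of 13216 rows and all 34 members were found in the Ensembl BDGP6 annotation. limma 3.58.1 (R 4.3.3, with trend) was fitted to log2(normalized count + 1), which understates changes of scarce transcripts, for the rows that reached 10 normalized counts in 3 or more libraries, with Benjamini-Hochberg adjustment over all of them. GCNA null replicates 1 and 2 were averaged. edgeR 4.0.16 (quasi-likelihood), DESeq2 1.42.0 and limma-voom used the recovered reads. For GCNA null replicates 1 and 2 they took the mean of the unscaled reads, rounded to whole reads, so they share the averaging with limma. The limma, edgeR and DESeq2 fits were run on simulated counts of 5 independent samples with a fixed dispersion and no averaged sample. That run does not show how they behave at the spread of these libraries. Other alternatives were pseudocounts, filters, scalings, separate samples, a replicate block, windows and left-out libraries. Named are members that passed, the 10 most abundant others, changed neighbours and changed list members (up to 6, or the 2 most abundant). GstE14, Gclc, Idgf5, imd, CG1998, CG43066, Octbeta2R, Mmp2 and the scarce members were chosen after their values were seen. Members, lists and the averaging were chosen with earlier results of these data known. Intervals cover counting error only.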

Additional observations from a re-analysis of the deposited data

How the results depend on the processing

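With 6 separate samples, 6 separate samples with a replicate block, and DESeq2, all rows called numbered 1684, 1117 and 1178, against 645. In the same order the neighbours that rose numbered 8, 5 and 7 (against 3) and those that fell 7, 2 and 4 (against 1). The neighbours that fell numbered 2 with a pseudocount of 10 and 2 with quantile normalization. Within 10 kb no neighbour rose (0) or fell (0), and within 100 kb 11 rose and 5 fell. Leaving out each library, or the sample of GCNA null replicates 1 and 2, gave 4 to 6 members that rose and 0 to 1 that fell, 1 to 3 neighbours that rose and 1 to 2 that fell, and 223 to 757 rows called in all. The 223 came without GCNA null replicates 1 and 2, and leaving out wild type replicates 1, 2 and 3 gave 353, 351 and 283 rows called, with 4 members that rose each time. Fewer samples enter these fits, except those without GCNA null replicate 1 or 2, where the other replicate stands for their averaged sample. Without replicate 3, or without replicates 1 and 2, a lone GCNA null sample is taken to vary as wild type samples do. Same-numbered libraries of the 2 groups did not deviate together over rows (r = -0.18, 0.073 and -0.094 for replicates 1 to 3), so the block rests on a shared number only, and with it the same 7 members were called. No called member changed sign under any alternative. Scarce members are limited by depth: GstD8, GstE2, GstE4 and GstZ2 had at most 30 reads in either group.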
